A study of Mus musculus with 141 samples.

Results

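The effect of interleukin 6 (IL6) and transforming growth factor beta (TGFb) was measured after 24 h of culture by RNA sequencing in 6 libraries of a series of 141. The 6 libraries were taken by their labelled culture condition and time: 3 from cells given IL6 and TGFb, and 3 from cells cultured without polarizing cytokines, called Th0. All 6 came from naive CD4 T cells, sorted as CD4+CD25-CD44lo. Their source was the lymph nodes and spleen of C57BL/6 mice, a common inbred strain, and the labels name no altered allele or transgene. The ages of the mice are not given in the sources used here. Both groups were stimulated with plate-bound antibodies to CD3 at 0.5 µg/ml and to CD28 at 5 µg/ml, so the comparison shows what the cytokines added to that stimulation. IL6 was given at 20 ng/ml and TGFb at 1 ng/ml. Each group held 1 library from each of courses 1, 2 and 3, which the labels call biological replicates. Which mice or cultures a course shared is not given, so p-values measure the spread between these samples.

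Helper T cells take on different fates according to the cytokines present when their receptor is engaged. IL6 acts through the receptor chain gp130 and the transcription factor STAT3, and TGFb through receptor kinases and SMAD factors. The pair starts the Th17 fate, named for the cytokine interleukin 17 that these cells secrete. Th17 cells guard mucosal surfaces against bacteria and fungi and take part in autoimmune inflammation.

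The 6 libraries held 21.6 to 27.7 M reads, within the 16.1 to 35 M of all 57 libraries of courses 1 to 3. Libraries at 24 h deviated from their group mean by a root mean square of 0.124 to 0.173 on the log2 scale. Over the 57 the median was 0.158 and the highest value 0.63. Levels are reads per gene scaled to a common library total, CPM, after trimmed-mean scaling and are not divided by gene length, so they compare libraries and not genes. Changes are differences in log2 of CPM plus 0.5, IL6 and TGFb minus Th0, ± SE from limma. The SE rests on the spread pooled over all 19 groups of courses 1 to 3, with 38 residual degrees of freedom. T cell markers summed to 3400 to 3890 CPM in Th0 libraries and to 2360 to 2600 CPM with IL6 and TGFb. B cell markers were at 2.67 to 5.01 and 2.78 to 3.4 CPM, and myeloid markers at 4.94 to 5.01 and 5.19 to 7.18 CPM. Natural killer and gamma-delta T cell markers were at 2.39 to 3.06 and 4.18 to 5.16 CPM, and erythroid and platelet markers at 3.98 to 4.24 and 2.64 to 4.83 CPM. Stromal and endothelial markers were at 23.2 to 38.5 and 11.6 to 12.1 CPM, mostly from Pecam1, which naive T cells also express. Lyz1, Ncr1, Klra8, Pf4, Ppbp and Col3a1 had no read in any of the 6 libraries. The CD8 markers Cd8a and Cd8b1 summed to 32.8 to 40.6 CPM in Th0 libraries and to 1.98 to 2.64 CPM with the cytokines, against 16.8 to 24 CPM in naive cells. In the Th0 libraries the sum was mostly Cd8b1, with Cd8a at 0.921 to 1.26 CPM. In bulk libraries, fewer cells of a type and less RNA per cell cannot be told apart.

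Of 14695 genes tested, 1984 were higher with IL6 and TGFb and 1856 lower, or 13.5% and 12.6% of all genes. Counts of list members given below are to be read beside these shares. The median log2 change of all genes tested was -0.023. At least a 2-fold change was seen in 581 higher and 517 lower genes, at least 8-fold in 74 and 43, and at least 32-fold in 13 and 2. The rises were thus larger than the falls at the extremes. The number of calls moved with the libraries used. Without course 1 there were 1960 higher and 1856 lower genes, without course 3 there were 1285 and 1096, and without course 2 there were 1326 and 1092. The 72 h Th0 group lies outside the comparison but enters the pooled spread. Without it there were 2332 higher and 2276 lower genes.

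**Figure D1:**
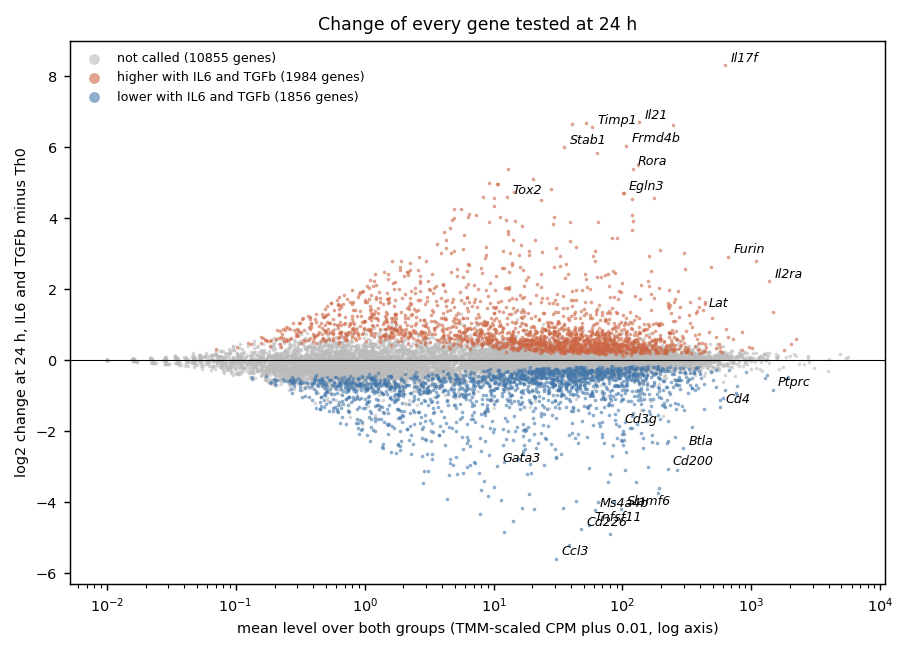
Change at 24 h against mean level for every gene tested; each point is a gene, x is the mean CPM over both groups plus 0.01 on a log axis and y the log2 change, IL6 and TGFb minus Th0. Il17f stands highest at 8.31 and Ccl3 lowest at -5.60, and the 10855 genes not called lie around 0 between the 1984 higher and 1856 lower ones.

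The genes that rose most included several outside the cytokine and receptor genes by which Th17 cells are usually known. Timp1, an inhibitor of matrix metalloproteinases, stood at 1.03, 0.685 and 0.513 CPM in the Th0 libraries of courses 1, 2 and 3, and at 100, 132 and 115 CPM with IL6 and TGFb. It rose by 6.56 ± 0.33 (adjusted p = 1.72e-20), and no library of one group came near the other. Frmd4b, a scaffold protein of the FERM domain family, went from 2.36, 2.45 and 3.33 CPM to 216, 204 and 212 CPM, a rise of 6.05 ± 0.27. Stab1, the scavenger receptor stabilin-1, went from 0.774, 0.83 and 0.299 CPM to 70.9, 74.2 and 65.6 CPM, a rise of 6.00 ± 0.27. For each of these 3 genes every library with the cytokines lay far above every Th0 library. Lack of overlap was a condition for naming them, and 7180 of all 14695 genes tested did not overlap. Emp1, an epithelial membrane protein, rose by 5.83 ± 0.40: 168, 69.8 and 141 CPM with the cytokines against 1.88, 1.7 and 1.24 CPM. Aqp3, a water and glycerol channel, stood at 286, 245 and 253 CPM against 7.15, 3.32 and 5.9 CPM and rose by 5.51 ± 0.45. Il1rn, the interleukin 1 receptor antagonist, was at 18.2, 22.5 and 13.9 CPM with the cytokines and under 0.1 CPM in each Th0 library, at 0.0737, 0.0721 and 0.0855 CPM.

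**Figure D2:**
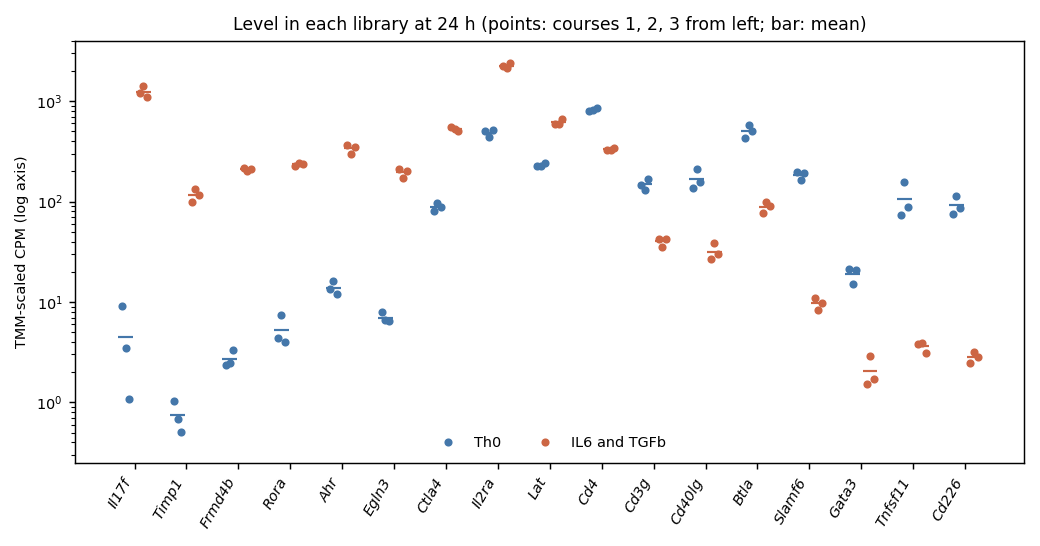
Level of 17 genes in each of the 6 libraries at 24 h, in CPM on a log axis; points are courses 1, 2 and 3 from left to right within a group and bars are means. The groups do not overlap for any gene shown, as the genes were chosen from those without overlap. Il17f is at 1110 CPM or more against 9.02 CPM or less. Cd226 is at 3.21 CPM or less against 75.1 CPM or more.

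All 8 tested genes of the Th17 cytokine list were higher (median 4.19, against -0.023 for all genes), beside the 13.5% of all genes that were higher. This count is partly set by the filter of 1 CPM in 3 libraries. Il17a, Il9, Il10, Il22, Il24 and Ccl20 averaged at most 0.227 CPM in the Th0 libraries, so they were tested only because they were higher elsewhere. Il17f, the largest rise of any gene, stood at 1210, 1410 and 1110 CPM with IL6 and TGFb against 9.02, 3.46 and 1.07 CPM. Its neighbour Il17a was still low, at 17.2, 20 and 12 CPM against 0.442, 0.144 and 0.0428 CPM, a rise of 4.59 ± 0.39. Il21, which signals through STAT3 and sustains the fate, was at 262, 258 and 278 CPM against 2.73, 2.06 and 1.5 CPM. Il9 and Il10, cytokines that Th17 cells can also make, rose by 4.27 ± 0.34 and 4.12 ± 0.27. Il22 (2.81 ± 0.24) and Il24 (1.84 ± 0.16), of the interleukin 10 family, and the chemokine gene Ccl20 (1.92 ± 0.30) rose from under 0.2 CPM in every Th0 library to at most 3.28 CPM.

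The nuclear receptor encoded by Rora, which rose (values are given with the transcription factors), binds the half-site AGGTCA, so the 250 bases before the RefSeq start sites (GRCm38.p6) of Th17 genes were searched for these letters on both strands. Windows were matched by symbol for 9950 of the 14695 genes tested. The letters stood in the windows of 3 of 6 Th17 cytokine genes with a window (Il17a, Il17f and Ccl20) and of 3 of 7 Th17 receptor genes (Il23r, Il21r and Ccr6). Over all 27025 genes with windows the share was 15.8%. A match is a run of letters and not a shown binding site. The windows of the interleukin 17 genes and of Il23r are printed because these genes define the fate; each is given 5′ to 3′ on its gene's strand, and capitals mark AGGTCA or its complement TGACCT. The windows are chr1:20784271-20784520 on the minus strand, chr1:20730655-20730904 on the plus strand and chr6:67491856-67492105 on the minus strand.
Il17f: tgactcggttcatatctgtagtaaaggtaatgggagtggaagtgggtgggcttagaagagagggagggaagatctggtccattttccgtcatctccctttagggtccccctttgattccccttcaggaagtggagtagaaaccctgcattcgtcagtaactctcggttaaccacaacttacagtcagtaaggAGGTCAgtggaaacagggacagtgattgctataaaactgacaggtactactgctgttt
Il17a: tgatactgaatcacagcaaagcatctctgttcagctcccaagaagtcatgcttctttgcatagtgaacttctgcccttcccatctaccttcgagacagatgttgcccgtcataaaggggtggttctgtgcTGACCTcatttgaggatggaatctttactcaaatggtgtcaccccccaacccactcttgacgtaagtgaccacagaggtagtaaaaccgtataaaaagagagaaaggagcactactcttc
Il23r: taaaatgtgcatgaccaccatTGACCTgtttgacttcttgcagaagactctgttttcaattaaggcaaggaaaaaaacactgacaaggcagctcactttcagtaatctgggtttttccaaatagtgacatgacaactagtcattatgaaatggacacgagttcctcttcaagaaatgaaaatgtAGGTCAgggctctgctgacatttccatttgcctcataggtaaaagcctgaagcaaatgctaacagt
The match begins 58 bases before the start in Il17f and 120 bases before it in Il17a. Il23r has 2 matches, which begin 229 and 66 bases before the start.

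Of the 8 Th17 receptor genes 5 were higher and 1 lower (median 1.31). Il1r1, the signalling receptor for interleukin 1, stood at 112, 100 and 98.4 CPM against 0.516, 0.649 and 0.385 CPM, a rise of 6.68 ± 0.30. Il23r, the receptor through which interleukin 23 maintains the cells, was at 11.6, 10.9 and 10.9 CPM against 0.147, 0.0721 and 0.0855 CPM. Ccr6, the receptor for the product of Ccl20, rose by 3.03 ± 0.54, with 18.7, 32.3 and 22.4 CPM against 2.54, 3.5 and 1.67 CPM. The chains of the IL6 receptor went in opposite directions. Il6st, which encodes gp130, rose by 1.19 ± 0.14, with 629, 701 and 748 CPM against 299, 289 and 320 CPM. Il6ra, the IL6-binding chain, fell by 1.01 on the log2 scale (SE 0.24, adjusted p = 8.59e-04), with 84.1, 72.4 and 85.3 CPM against 178, 133 and 181 CPM. Il21r, the receptor for interleukin 21, rose by 1.42 ± 0.18. Neither Il1r2, a decoy receptor (-0.30 ± 0.39, adjusted p = 0.621), nor Il12rb1 (0.44 ± 0.41, adjusted p = 0.475) passed the test. Il12rb1 passed in a fit of the 6 libraries alone (0.45, adjusted p = 0.00199), and its groups did not overlap.

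Of the 12 Th17 transcription factor genes 9 were higher and 1 lower (median 1.56). Rora, a nuclear receptor gene that promotes the fate, stood at 227, 244 and 236 CPM against 4.42, 7.36 and 3.98 CPM, a rise of 5.40 ± 0.25. Maf, which promotes Il21 and Il10, rose by 6.62 ± 0.31, and Ahr, the aryl hydrocarbon receptor, by 4.57 ± 0.29. Batf, an AP-1 family partner of IRF4, rose by 2.52 ± 0.23, Stat3 by 1.75 ± 0.13, Runx1 by 1.36 ± 0.18, Hif1a, the hypoxia-inducible factor, by 1.28 ± 0.13, and Vdr, the vitamin D receptor, by 0.65 ± 0.22. The call of Vdr was lost without course 1 or course 3 (adjusted p = 0.136 and 0.0845) and with a pseudocount of 0.1 (adjusted p = 0.0584). Nfkbiz, an atypical inhibitor of NF-kB, fell by 0.71 on the log2 scale (SE 0.18). Irf4 was high in both groups, at 1680, 1470 and 1790 CPM against 1270, 1500 and 1640 CPM, and the groups overlapped (0.17 ± 0.43, adjusted p = 0.822). Bhlhe40 stood at 136, 174 and 137 CPM against 223, 251 and 236 CPM without passing the test (-0.68 ± 0.41, adjusted p = 0.235), though it passed without course 1 (-0.66, adjusted p = 0.00888) and in a fit of the 6 libraries alone (-0.66, adjusted p = 7.10e-04).

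Genes that answer to IL6 and STAT3 and feed back on cytokine signals mostly rose, 11 of 16, with 1 lower (median 1.32). Bcl3, a nuclear cofactor of NF-kB, stood at 77.9, 63 and 71.8 CPM against 8.91, 3.39 and 8.51 CPM and rose by 3.36 ± 0.45. Socs3, the inhibitor that STAT3 induces to limit gp130 signals, was at 63.4, 45.6 and 57.4 CPM against 8.51, 3.53 and 6.07 CPM and rose by 3.16 ± 0.56. Socs1, a related inhibitor, rose by 2.39 ± 0.39, Tnfrsf8, which encodes CD30, by 2.98 ± 0.39, Fosl2, an AP-1 factor, by 2.93 ± 0.36, and Lif, a cytokine of the IL6 family, by 1.95 ± 0.40. The lower gene, Pim2, a kinase gene outside the naming rule and chosen after its value was seen, went from 276, 236 and 333 CPM to 94.6, 84.4 and 107 CPM.

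STAT factors bind TTCNNNGAA, a sequence that reads the same on both strands. These letters stood in the window of 2 of the 14 feedback genes with a window, Socs3 and Bcl6, against 8.13% of all genes. The window of Socs3 is shown because it holds the match and the gene rose; it is chr11:117969367-117969616 on the minus strand, with TTCNNNGAA in capitals.
Socs3: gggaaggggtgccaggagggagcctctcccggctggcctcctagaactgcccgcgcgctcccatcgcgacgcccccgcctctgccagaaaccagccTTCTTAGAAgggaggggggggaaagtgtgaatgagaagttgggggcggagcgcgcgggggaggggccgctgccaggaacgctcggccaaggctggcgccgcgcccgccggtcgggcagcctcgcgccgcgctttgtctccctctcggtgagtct
The match begins 154 bases before the RefSeq start. Of the 7 windows printed, 6 have bases after their start that lie in a GENCODE transcript of the gene, and that of Socs3 does not.

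Of 24 TGFb and SMAD response genes 10 were higher and 2 lower (median 0.45), and 12 did not pass. Pmepa1, a membrane protein that holds back SMAD activation, stood at 223, 230 and 232 CPM against 12.7, 16.1 and 14.9 CPM, a rise of 3.93 ± 0.24. Ldlrad4, an inhibitor of the same family, rose by 2.59 ± 0.19. The signalling chain itself moved too: Smad3 was at 138, 111 and 141 CPM against 26.1, 18 and 27.7 CPM (2.44 ± 0.38), and the receptor gene Tgfbr1 at 154, 139 and 156 CPM against 38.9, 38.6 and 38.4 CPM (1.94 ± 0.15). Smad2 (0.07 ± 0.09, adjusted p = 0.64) and Tgfbr2 (0.34, adjusted p = 0.219) did not pass the test. The lower genes were Nrp1, a coreceptor also used as a mark of thymic regulatory T cells (-2.40 ± 0.42), and Serpine2, a protease inhibitor (-1.96 ± 0.35). The SMAD letters CAGAC stood in the windows of 7 of 13 such genes, against 45.8% of all genes.

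The aryl hydrocarbon receptor, a sensor of tryptophan products and dioxins that adds to Il22 production, had its gene and most of its listed targets raised. Of 7 genes on the list 5 were higher and none lower (median 1.91). Cyp1b1, a cytochrome P450, stood at 77.9, 81 and 83.1 CPM against 0.884, 0.108 and 0.128 CPM, a rise of 6.65 ± 0.30. Tiparp, an ADP-ribosyltransferase that represses the receptor, was at 156, 160 and 186 CPM against 14.9, 15.4 and 14.2 CPM, a rise of 3.45 ± 0.14. Ahrr, the receptor's repressor, was at 9.97, 8.41 and 8.34 CPM against 2.03, 1.98 and 1.97 CPM and rose by 1.91 ± 0.31. Cyp1a1, the best known target, rose least, by 1.58 ± 0.42, and already stood at 18.7, 14.9 and 12.5 CPM in Th0 libraries. Its call was lost without course 3 (1.33, adjusted p = 0.115), with a pseudocount of 0.1 (adjusted p = 0.0871) and with DESeq2 (adjusted p = 0.135). Arnt, the receptor's partner, stood at 57.7 and 60.8 CPM on average (0.08, adjusted p = 0.629), and Nqo1 did not pass either (-0.55, adjusted p = 0.288).

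The receptor and its partner bind the core GCGTG. The letters stood in the windows of 5 of the 6 listed genes with a window (Ahrr, Arnt, Cyp1a1, Cyp1b1 and Tiparp), against 30.9% of all genes. The windows of the cytochrome genes and of Tiparp are shown because all 3 genes rose and hold the letters; capitals mark GCGTG or its complement CACGC. They are chr17:79715062-79715311 on the minus strand, chr3:65528197-65528446 on the plus strand and chr9:57697363-57697612 on the plus strand.
Cyp1b1: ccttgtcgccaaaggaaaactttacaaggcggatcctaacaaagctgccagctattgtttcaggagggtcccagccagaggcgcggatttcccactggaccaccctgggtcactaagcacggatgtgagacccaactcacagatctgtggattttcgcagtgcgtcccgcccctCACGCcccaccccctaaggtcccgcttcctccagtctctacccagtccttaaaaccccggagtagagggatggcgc
Tiparp: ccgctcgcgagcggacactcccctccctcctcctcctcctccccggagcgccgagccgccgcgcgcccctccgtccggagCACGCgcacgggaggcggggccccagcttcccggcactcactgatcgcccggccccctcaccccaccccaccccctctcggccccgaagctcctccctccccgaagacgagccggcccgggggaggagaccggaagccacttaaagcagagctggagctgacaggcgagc
Cyp1a1: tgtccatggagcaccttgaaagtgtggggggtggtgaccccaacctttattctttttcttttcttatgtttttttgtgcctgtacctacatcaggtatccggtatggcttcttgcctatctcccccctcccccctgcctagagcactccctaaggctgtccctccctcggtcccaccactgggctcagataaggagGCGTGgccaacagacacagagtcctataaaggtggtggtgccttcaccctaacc
The match begins 76 bases before the start in Cyp1b1, 170 in Tiparp and 54 in Cyp1a1.

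**Figure D3:**
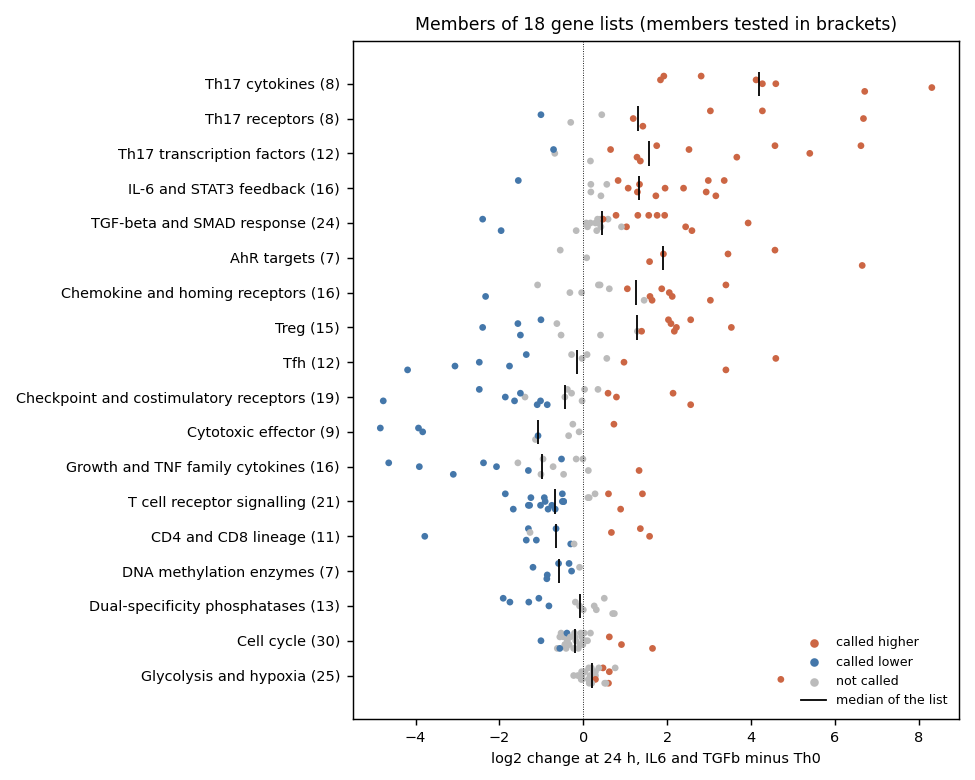
Log2 change at 24 h of the tested members of 18 gene lists; each point is a gene, coloured by whether it was called higher, lower or neither, and the black line is the median of the list. The median is 4.19 for Th17 cytokines, -0.67 for T cell receptor signalling, -0.59 for DNA methylation enzymes and -0.20 for cell cycle genes.

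Among AP-1, BATF and IRF factors 6 of 15 were higher and 4 lower (median 0.17). The AP-1 letters TGANTCA stood in the windows of 0 of the 14 such genes with a window, against 7.82% of all genes. Nfil3, a basic leucine zipper factor of the circadian system, went from 3.02, 3.39 and 3.81 CPM to 24.8, 21.8 and 27.1 CPM, a rise of 2.68 ± 0.16. Jun rose by 1.94 ± 0.27, and Irf8 by 1.92 ± 0.46 from 38.2, 42.4 and 40.8 CPM to 163, 144 and 156 CPM. Irf8 missed the threshold without course 3 (adjusted p = 0.0501). Atf3, a stress-induced repressor, fell by 1.59 on the log2 scale (SE 0.46), and its call was lost without course 2 or 3 (adjusted p = 0.116 and 0.103). Without either course, 2 of the 15 were lower in place of 4. In the nuclear receptor list 5 of 22 were higher and 4 lower (median 0.09), beside 13.5% and 12.6% of all genes. Nr1d1, the circadian repressor REV-ERBα, rose by 2.88 ± 0.22, with 15.7, 15.4 and 15.4 CPM against 1.73, 1.8 and 1.5 CPM. Rxra, the shared partner of many nuclear receptors, fell by 1.90 on the log2 scale (SE 0.19), from 184, 183 and 192 CPM to 48.4, 49.9 and 50.9 CPM. Leaving out course 2 gave 4 higher and 2 lower of them, and leaving out course 3 gave 3 and 3.

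Genes of other helper fates did not move as blocks, and their counts stand beside 13.5% higher and 12.6% lower of all genes. Of 14 Th1 genes 5 were higher and 1 lower (median 0.42). Stat4, which carries interleukin 12 signals, fell by 2.79 on the log2 scale (SE 0.24), from 24.2, 29.3 and 30.1 CPM to 3.02, 4.58 and 3.33 CPM. Il12rb2, a chain of the interleukin 12 receptor, and the chemokine receptor gene Cxcr3 rose, by 1.82 ± 0.29 and 2.12 ± 0.46. Tbx21, the Th1 master factor, stood at 6.99, 5.63 and 8.99 CPM against 0.995, 4.33 and 6.71 CPM, with overlapping groups (1.02 ± 0.61, adjusted p = 0.228), and Ifng was under 1 CPM on average in both (adjusted p = 0.437). Of 10 Th2 genes 4 were higher and 1 lower (median -0.08). The lower gene was the Th2 master factor Gata3, with 1.53, 2.92 and 1.72 CPM against 21.5, 15.1 and 20.8 CPM (-2.97 ± 0.16). Il4ra, the interleukin 4 receptor, rose by 1.73 ± 0.25, and Stat5a and Stat5b by 1.47 ± 0.22 and 1.05 ± 0.14.

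Of 15 regulatory T cell genes 7 were higher and 4 lower (median 1.29), beside 13.5% and 12.6% of all genes. Il2ra, the high-affinity interleukin 2 receptor chain, stood at 2230, 2150 and 2380 CPM against 499, 442 and 515 CPM, a rise of 2.22 ± 0.38. Ctla4, an inhibitory receptor, was at 548, 524 and 505 CPM against 81, 96 and 89.3 CPM and rose by 2.56 ± 0.20. Entpd1 and Nt5e, the surface enzymes that turn ATP into adenosine, rose by 3.53 ± 0.37 and 2.17 ± 0.19. Foxp3, the regulatory T cell master factor that TGFb can induce, stood at 10.4, 4.47 and 9.3 CPM against 4.02, 1.48 and 3.59 CPM and missed the threshold (1.29 ± 0.58, adjusted p = 0.0963). It passed without course 1 (1.30, adjusted p = 0.017), in a fit of the 6 libraries alone (1.31, adjusted p = 0.0211) and without the 72 h Th0 group (adjusted p = 0.0242).

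Follicular helper genes split in 2 directions, with 3 of 12 higher and 5 lower (median -0.15), beside 13.5% and 12.6% of all genes. Tox2, a chromatin factor, rose by 4.59 ± 0.27, from 0.368, 0.397 and 0.941 CPM to 29.1, 21 and 23.9 CPM. Cxcr5, the receptor that guides cells to B cell follicles, rose by 3.40 ± 0.24, with 42.4, 32.8 and 40.2 CPM against 3.39, 2.45 and 3.81 CPM. Slamf6, a self-binding receptor of T and B cell contacts, fell by 4.19 on the log2 scale (SE 0.24): it stood at 197, 165 and 194 CPM in Th0 libraries and at 10.9, 8.37 and 9.82 CPM with the cytokines, beside a mean of 131 CPM in naive cells. Sh2d1a, the adaptor of that receptor family, fell by 1.76 (SE 0.16). Cd200, an inhibitory ligand, went from 320, 495 and 381 CPM to 34.6, 67.8 and 43.3 CPM (-3.06 ± 0.51), and Btla, an inhibitory receptor, from 429, 580 and 500 CPM to 77, 100 and 90.9 CPM (-2.48 ± 0.29). Bcl6, the follicular master factor, did not pass (0.56 ± 0.33, adjusted p = 0.215), but did without course 1 (0.74, adjusted p = 1.01e-04) and in a fit of the 6 libraries alone (0.58, adjusted p = 0.00693).

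Ligands of the tumour necrosis factor (TNF) family and growth cytokines were mostly lower or uncalled: 7 of 16 fell and 1 rose (median -0.99), beside the 12.6% of all genes that fell. Tnfsf11, which encodes RANKL, the osteoclast factor, stood at 3.78, 3.93 and 3.12 CPM against 74, 158 and 89.3 CPM in Th0 libraries, a change of -4.64 ± 0.51. Tnfsf8, the ligand of CD30, went from 153, 202 and 208 CPM to 16.8, 22.5 and 25.3 CPM (-3.10 ± 0.22), while its receptor gene Tnfrsf8 rose. Cd40lg, the helper ligand for B cells, went from 138, 211 and 158 CPM to 26.7, 38.9 and 29.9 CPM (-2.38 ± 0.30). Tnfsf14, which encodes LIGHT, fell by 2.07 (SE 0.50), and Il3, a growth factor of blood progenitors, by 3.91 (SE 0.44). Lta, which encodes lymphotoxin alpha, was the gene that rose, by 1.33 ± 0.37, a call lost without course 3 (adjusted p = 0.126). Il2 stood at 309 CPM on average without and 101 CPM with the cytokines and did not pass the test (-1.56, adjusted p = 0.298). Without course 1, 12 of the 16 were lower, and without course 2 or course 3, 5 were.

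Chemokine ligand genes gave 4 lower and 1 higher of 10 (median -0.58). Ccl3 and Ccl4, which attract leukocytes, fell by 5.60 (SE 0.86) and 4.89 (SE 0.90), and Th0 library 2 stood apart in both, at 122 against 27 and 32.3 CPM and at 250 against 102 and 115 CPM. With the cytokines Ccl4 was at 3.7, 5.34 and 4.15 CPM and Ccl3 under 1 CPM in each library. Of 9 cytotoxic genes 4 were lower and 1 higher (median -1.08). Fasl, the death ligand, went from 19.8, 26.9 and 25.1 CPM to 0.382, 0.433 and 0.24 CPM (-4.84 ± 0.57). Serpinb9, which shields cells from their own granzyme B, went from 10.8, 25.6 and 15.9 CPM to 0.611, 0.866 and 0.618 CPM (-3.83 ± 0.25), and its relative Serpinb6b moved alike (-3.93 ± 0.27). Granzyme genes themselves were low in both groups, with Gzmb at 0.362 and 0.159 CPM on average. Cd8b1, a CD8 chain, stood at 2.1, 1.88 and 2.44 CPM against 36.3, 31.6 and 39.5 CPM in Th0 libraries (-3.78 ± 0.15), higher there than the naive mean of 17.6 CPM. Cd8a, the chain that all CD8 T cells carry, was at 0.191, 0.108 and 0.206 CPM against 0.921, 1.26 and 1.15 CPM (adjusted p = 0.116). The part of the CD8 markers in the falls of the cytotoxic and chemokine genes was not tested.

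Chemokine and homing receptors leaned the other way from the ligands, with 8 of 16 higher and 1 lower (median 1.25). Besides Cxcr5, Ccr6 and Cxcr3, the receptors Ccr8 and Cxcr4 rose, by 1.87 ± 0.30 and 1.64 ± 0.25. Gpr183, the oxysterol receptor that places activated T cells at the edge of follicles, fell by 2.33 (SE 0.35), from 74.3, 74.2 and 77.7 CPM to 13.6, 16.3 and 14.1 CPM. Of 23 cytokine receptor chains 8 were higher and 5 lower (median 0.16), beside 13.5% and 12.6% of all genes. Some of the higher ones, Il2ra, Il2rb, Il4ra and Il12rb2, were also counted in lists above. Il15ra stood at 1.91, 2.06 and 1.85 CPM against 11.5, 15.6 and 15.3 CPM (-2.57 ± 0.19), and Il10ra at 0.764, 1.01 and 0.481 CPM against 10.9, 4.9 and 9.41 CPM (-2.78 ± 0.50), although Il10 itself rose. Il7r, the survival cytokine receptor of naive cells, was at 14.4, 18.7 and 14.4 CPM against 10.8, 2.99 and 5.39 CPM (1.40 ± 0.33), beside 544 CPM in naive cells. Its call was lost without course 2 (0.89, adjusted p = 0.152).

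Of 19 checkpoint and costimulatory receptors 8 were lower and 4 higher (median -0.44), beside 12.6% and 13.5% of all genes. Cd226, an activating receptor for nectin-like ligands, fell by 4.77 (SE 0.32), from 75.1, 114 and 86.7 CPM to 2.48, 3.21 and 2.85 CPM. Tnfrsf18, which encodes GITR, fell by 1.50 (SE 0.23), and Tnfrsf9, which encodes 4-1BB, by 1.64 (SE 0.48), a call lost without course 2 or 3 (adjusted p = 0.0719 and 0.122). Cd101, an inhibitory surface protein, rose by 2.14 ± 0.27, from 1.95, 1.41 and 2.57 CPM to 14.7, 7 and 10.2 CPM. Pdcd1 and Icos, which many activated T cells carry, did not pass (adjusted p = 0.982 and 0.442).

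Genes of the T cell receptor signalling list were mostly lower: 15 of 21 fell and 3 rose (median -0.67, against -0.023 for all genes). The list holds genes that carry the signal and genes that restrain it. Both kinds, such as Cd3g and Dgka, are among the 15, so the count gives no direction of signalling. Over all genes 12.6% fell. Without course 2 there were 11 lower signalling genes, and without course 3 there were 12. Cd3g, a chain of the receptor complex, stood at 42.7, 35.6 and 42.6 CPM against 147, 129 and 168 CPM in Th0 libraries (-1.86 ± 0.13, adjusted p = 1.61e-15). Cd3d went from 171, 152 and 196 CPM to 82.6, 81.2 and 90.3 CPM (-1.02 ± 0.10), and the receptor constant genes Trac, Trbc1 and Trbc2 fell by 0.84, 0.72 and 0.95. Rasgrp1, which links the receptor to Ras, fell by 1.31 (SE 0.30), a call lost without course 3 (adjusted p = 0.0667), and Dgka, which removes the lipid that activates it, by 1.25 (SE 0.24). Nfatc1, a calcium-driven factor, went from 423, 369 and 451 CPM to 163, 160 and 186 CPM (-1.28 ± 0.18). The groups did not overlap for any of these genes, but that was a condition for naming them. Of all 14695 genes tested, 7180 did not overlap. Cd3g and Dgka lay below their naive means of 440 and 1910 CPM in both groups, whereas Nfatc1 had a naive mean of 216 CPM, between the groups.

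The adaptor gene Lat went against the group, at 591, 592 and 671 CPM against 228, 226 and 244 CPM, a rise of 1.41 ± 0.07. The other risers, named after their values were seen, were Nfatc2 (0.89 ± 0.19) and Plcg1 (0.60 ± 0.11), the phospholipase that Lat recruits. Lck, the first kinase of the cascade, stood at 494, 500 and 530 CPM against 477, 423 and 518 CPM and did not pass (0.11 ± 0.09, adjusted p = 0.415). The fall was not uniform over T cell genes: 8 of 11 T cell markers were lower, while Cd28 was at 629, 527 and 648 CPM against 501, 414 and 504 CPM (adjusted p = 0.171). Among CD4 and CD8 lineage genes 6 of 11 were lower and 3 higher (median -0.65). The lower ones numbered 7 without course 1, 5 without course 2 and 4 without course 3. Cd4 itself fell by 1.31 (SE 0.12), from 797, 809 and 854 CPM to 324, 324 and 345 CPM. Tox, a factor of CD4 lineage development, fell by 1.36 (SE 0.14), and Satb1, a chromatin organizer, rose by 1.58 ± 0.21, from 230, 196 and 233 CPM to 674, 617 and 674 CPM.

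Genes that receptor signalling switches on early gave 3 lower and 2 higher of 16 (median -0.04), beside 12.6% lower and 13.5% higher of all genes, with some large falls among them. Egr3, a calcium-driven zinc finger factor, stood at 17.1, 8.73 and 14.1 CPM against 154, 130 and 143 CPM (-3.42 ± 0.77), while its relatives Egr1 and Egr2 did not pass (adjusted p = 0.51 and 0.201). Nr4a3, an orphan nuclear receptor, went from 321, 310 and 296 CPM to 66.3, 60.7 and 56.4 CPM (-2.33 ± 0.57), and Rel, the lymphoid NF-kB subunit, from 314, 402 and 327 CPM to 98, 114 and 104 CPM (-1.71 ± 0.35). The calls of Egr3 and Nr4a3 were lost without course 2 (adjusted p = 0.0586 for both). The counts were 1 lower and 1 higher without course 2, 3 and 1 without course 3, and 6 and 5 without course 1. Of 13 dual-specificity phosphatases, a family of which some members switch off MAP kinases, 5 were lower and none higher (median -0.09). Dusp5 went from 187, 158 and 199 CPM to 52.7, 39.4 and 52.5 CPM (-1.91 ± 0.21), and Dusp2 and Dusp1 fell by 1.30 and 1.06. Of 20 apoptosis genes 4 were lower and 1 higher (median -0.32), and 7 were lower without course 1. Bcl2l11, which encodes the death factor BIM, went from 66.4, 58.8 and 72.8 CPM to 17.2, 13.3 and 16 CPM (-2.06 ± 0.18). Bcl2 and Mcl1, which hold death back, did not pass (adjusted p = 0.217 and 0.957).

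Enzymes that write or remove DNA methylation were mostly lower: 6 of 7 fell and none rose (median -0.59). Over all genes 12.6% fell. Dnmt3a, which methylates new sites, stood at 151, 154 and 162 CPM against 340, 369 and 366 CPM (-1.20 ± 0.15). Tet2, which oxidizes methylated cytosine, was at 42.7, 40.8 and 39.2 CPM against 77.2, 76.9 and 72 CPM (-0.87 ± 0.12), and Tet3 fell by 0.59 (SE 0.10). The falls of Dnmt1, which copies methylation at replication (-0.34 ± 0.12), and Dnmt3b (-0.28 ± 0.10) were small. Without course 1, 5 of the 7 were lower, without course 2, 4 of the 7 were lower and without course 3 there were 3, and Dnmt1 (adjusted p = 0.2 and 0.228), Dnmt3b (adjusted p = 0.24 and 0.126, and 0.0882 without course 1) and, without course 3, Tet1 (adjusted p = 0.205) no longer passed. Uhrf1, the partner of Dnmt1, did not pass (-0.09, adjusted p = 0.852).

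Factors of naive and memory cells moved both ways, 6 of 18 higher and 4 lower (median -0.21), and 3 and 2 without course 2. Over all genes 13.5% were higher and 12.6% lower. The inhibitor genes Id2 and Id3 went apart: Id2 rose by 2.95 ± 0.26, from 12.7, 12.8 and 14.4 CPM to 98.2, 107 and 114 CPM, and Id3 fell by 2.16 (SE 0.26), from 114, 108 and 118 CPM to 21.9, 27.9 and 25.3 CPM. Foxo1, a keeper of quiescence, rose by 2.05 ± 0.23, with 320, 273 and 331 CPM against 79, 68 and 75.3 CPM, and so lay nearer its naive mean of 472 CPM. Klf3 fell by 2.96 (SE 0.22), further from its naive mean of 272 CPM. Other genes high in naive cells fell among the largest changes: Ms4a4b, a T cell membrane protein, stood at 5.23, 8.37 and 4.19 CPM against 119, 103 and 126 CPM, with 428 CPM in naive cells, and Mndal, an interferon-inducible gene, at 0.764, 3.32 and 0.686 CPM against 31.9, 28.7 and 34.3 CPM, with 190 CPM in naive cells. Of 16 integrin genes 3 were higher and 2 lower (median 0.16), near the shares of all genes. Itga3 rose by 2.25 ± 0.35, while Itga4 and Itgb1, the chains of VLA-4, fell by 1.93 (SE 0.27) and 0.96 (SE 0.16).

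Counts of cell cycle, metabolic and interferon genes stand beside 13.5% higher and 12.6% lower of all genes. Of 30 cell cycle genes 3 were higher and 3 lower (median -0.20). The number lower ran from 0, without course 2, to 16 over the alternatives, so it depends on the fit. Cdk6, a G1 kinase, had the largest change of them, at 623, 701 and 654 CPM against 176, 259 and 201 CPM (1.65 ± 0.21). Mki67, the proliferation marker, stood at 474 CPM on average with and 726 CPM without the cytokines and did not pass (adjusted p = 0.269). Among the 25 genes of glycolysis and hypoxia, 5 rose and none fell (median 0.20). The number that rose ran from 3, without course 2, to 15 over the alternatives. Egln3, the prolyl hydroxylase that marks hypoxia-inducible factor for decay, rose by 4.71 ± 0.35, from 7.88, 6.64 and 6.46 CPM to 210, 171 and 204 CPM. Pkm rose by 0.60 ± 0.10 and Ldha by 0.47 ± 0.15, the latter lost without course 2 or 3 (adjusted p = 0.106 and 0.143). Of 28 sterol and fatty acid genes 6 were higher and 3 lower (median 0.02). Hmgcs1, an early enzyme of sterol synthesis, fell by 0.79 (SE 0.13). The counts were 3 and 5 without course 1 and 2 and 1 without course 2 or course 3. Over the alternatives the higher and lower counts reached 12 and 8. Of 21 amino acid stress genes 2 were higher, and of 14 amino acid transporters 3, with Slc1a4 up by 1.16 ± 0.23. These counts were 1 without course 3 for the stress genes, and 1 without course 2, without course 3 or without trimmed-mean scaling for the transporters. Over the alternatives the higher counts of these lists reached 9 and 8, and the lower counts 4 and 2. Of 24 interferon response genes 2 were higher and 3 lower (median -0.18). Ly6a, which encodes Sca-1, rose by 3.90 ± 0.22, from 4.86, 6.46 and 13.9 CPM to 121, 115 and 128 CPM, and Isg20, an exonuclease, fell by 3.17 (SE 0.28). The lower interferon genes numbered 1 without course 2 or course 3 and 6 without course 1.

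The largest gains in CPM among called genes were in abundant transcripts. Besides Il2ra and Il17f these were Cpd, carboxypeptidase D, at 1890, 1890 and 1900 CPM against 229, 364 and 244 CPM (2.79 ± 0.56); Furin, the protease that matures TGFb, at 1140, 1190 and 1140 CPM against 137, 168 and 153 CPM (2.92 ± 0.21); and Uba1, the ubiquitin-activating enzyme, at 2130, 1900 and 2340 CPM against 761, 845 and 863 CPM (1.36 ± 0.09). Among genes called lower those that lost most CPM were Ptprc, which encodes CD45 and fell by 824 CPM, Myh9, a myosin heavy chain, which fell by 628 CPM, and Tmsb4x, an actin-binding peptide gene, which fell by 516 CPM, followed by Cd4. These falls were modest as ratios, -0.84 ± 0.11, -0.47 ± 0.10 and -0.99 ± 0.18 on the log2 scale. The long noncoding RNA Malat1 fell by 0.92 (SE 0.26), and its call was lost without course 1 (adjusted p = 0.0879).

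The course of the effect over time was examined by testing the difference between the effect at 24 h and the effect at 12 h, each from its own 6 libraries, with the background shares given beside the counts. The effect was more positive at 24 h in 329 genes (2.24%) and more negative in 327 (2.23%). Without course 2 there were 115 and 107 such genes, and without course 3 there were 95 and 70. Of the 8 Th17 cytokines 7 had a more positive effect at 24 h, all but Il21; there were 5 without course 2 or course 3 and 2 with edgeR. Il17f was at 36.7 ± 4.39 CPM (SD, n = 3) with the cytokines at 12 h and at 1240 ± 152 CPM at 24 h, and its effect grew by 4.65 ± 1.01 (adjusted p = 0.00243). Cyp1b1 grew most, by 5.02 ± 0.42, and Pdpn, the membrane glycoprotein podoplanin, by 4.46 ± 0.34. Il17a grew by 3.94 ± 0.55, Il23r by 3.47 and Il1r1 by 2.50. None of the 12 Th17 transcription factors passed this test. With edgeR on the recovered reads, 9 of the 15 named genes that passed kept their direction but not their call, Cyp1b1 (4.17, adjusted p = 0.12), Pdpn (4.59, adjusted p = 0.145) and Il23r (3.97, adjusted p = 0.0536) among them, while Il17f (adjusted p = 0.00472) and Il17a (adjusted p = 0.0199) passed. Il17f lost its call without course 2 or course 3.

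Other genes had a more negative effect at 24 h than at 12 h. Isg20 had an effect more negative by 3.36 at 24 h, Serpinb9 by 3.28, Dapl1 by 3.23 and Plxnc1, a semaphorin receptor, by 3.10. Plxnc1 stood at 4.13, 2.89 and 2.85 CPM against 65.1, 65.7 and 68.1 CPM at 24 h. Of the 12 follicular helper genes, Slamf6, Btla, Tox and Sh2d1a were more negative at 24 h; Slamf6 changed by -1.23 at 12 h and by -4.19 at 24 h. Of the 21 receptor signalling genes 4 were more negative at 24 h, among them Cd3g, Nfatc1 and Lcp2, an adaptor, and Lat was more positive. Nfatc1 changed by -0.19 at 12 h and by -1.28 at 24 h. Without course 2 the test called 2 follicular helper genes and 1 receptor signalling gene more negative, and without course 3 it called 2 and 0.

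**Figure D4:**
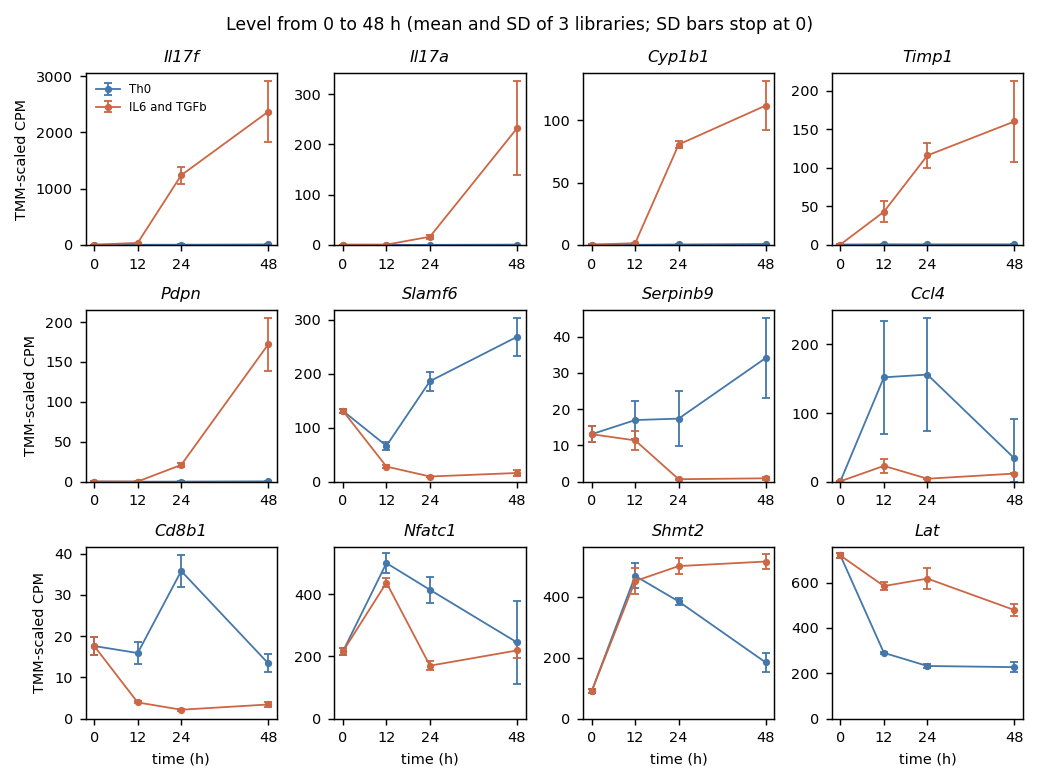
Level of 12 genes in naive cells at 0 h and in both conditions at 12, 24 and 48 h, in CPM from 0; points are means and bars SDs of 3 libraries, drawn no lower than 0. Il17f with IL6 and TGFb goes from 36.7 CPM at 12 h to 1240 CPM at 24 h, and Slamf6 in the Th0 condition stays above the cytokine condition at every time from 12 h.

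Between 24 and 48 h the effect became more positive in 1569 genes (10.7%) and more negative in 1064 (7.24%). These counts depend on scaling and course: without trimmed-mean scaling they were 984 and 1547, so that 38.9% in place of 59.6% were more positive. Leaving out course 1 gave 2787 and 2242 genes, leaving out course 2 gave 222 and 132, and leaving out course 3 gave 301 and 175. The effect was more positive at 48 h for 10 of 25 glycolysis genes, 13 of 21 amino acid stress genes and 10 of 14 amino acid transporters, and more negative for none of them. The numbers were 8, 12 and 8 without trimmed-mean scaling, 0, 5 and 4 without course 2, and 4, 8 and 5 without course 3. Shmt2, the mitochondrial serine enzyme, changed by 0.38 ± 0.10 at 24 h and by 1.49 at 48 h. In the receptor signalling group 6 genes, among them Cd3g, Nfatc1, Zap70, Lcp2 and Ptpn22, had a more positive effect at 48 h than at 24 h, and Lat a less positive one, but a single gene of the group was called more positive without course 2, and likewise without course 3. Nfatc1 changed by -1.28 at 24 h and by -0.04 at 48 h. Among Th17 cytokines Ccl20 grew by 4.48 ± 0.42 and Il17a by 2.93 ± 0.55, although with edgeR neither Ccl20 (4.06, adjusted p = 0.0636) nor Il17a (2.14, adjusted p = 0.196) passed, while Il17f did not pass (-0.33 ± 1.01, adjusted p = 0.869). The effects on Ccl3 and Ccl4 were more positive at 48 h by 5.18 and 5.75, and at 48 h itself neither gene passed (-0.42, adjusted p = 0.706, and 0.86, adjusted p = 0.436), but neither difference passed without course 2 (adjusted p = 0.269 and 0.232) or course 3 (adjusted p = 0.185 and 0.142).

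In courses 4 to 6, cells received IL6 and TGFb together with interleukin 1 beta (IL1b), with IL21, or with both, whereas the libraries with IL6 and TGFb alone came from courses 1 to 3, so the values are set side by side with no comparison. At 24 h Il17f stood at 1110 ± 44.4, 733 ± 46.8 and 1170 ± 62.3 CPM (SD, n = 3) in these cocktails, in that order, beside 1240 ± 152 CPM with IL6 and TGFb. Timp1 was at 160, 130 and 180 CPM beside 116 CPM, and Frmd4b at 176, 188 and 189 CPM beside 210 CPM. Il23r was at 4.37, 9.01 and 4.7 CPM beside 11.1 CPM. All of these levels lay above the Th0 levels of courses 1 to 3 at 24 h.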

How the data were processed

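RNA levels were deposited by the authors as CPM (reads per gene scaled to a common total) in 1 table of 46517 genes. The submitters' processing notes name TopHat, HTSeq, mm9 and GRCh37, a human build, without versions or roles. No source used here states whether counting used strand, so overlapping genes may share reads. Dividing each library's CPM by its smallest value gave whole reads for 100% of values (tolerance 0.001). Libraries were grouped by labelled condition, time and course. CPM were scaled by TMM (edgeR 4.0.16), the 14695 genes that reached 1 CPM in 3 or more libraries were kept, and log2(CPM + 0.5), which understates changes of low genes, was fitted with limma 3.58.1 over 57 libraries, with Benjamini-Hochberg adjustment over all genes and a threshold of 0.05. Every adjusted p is from this fit unless another tool, setting or set of libraries is named. The code was tested on simulated data. Alternatives were edgeR and DESeq2 1.42.0 on recovered reads, other pseudocounts, filters, scaling and sets of libraries.

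The comparison and gene lists were chosen with earlier results of these data known. Some genes stand on several lists, so the counts of different lists are not independent. Named genes were called, had at least 5 CPM in the higher group and did not overlap between groups: the 12 largest log2 changes and 6 largest CPM differences in each direction, up to 6 per list, all Th17 list members, lineage factors, and the 4 largest differences between times in each direction. Other list members are named as not called, or as chosen after their values were seen. Promoter windows came from RefSeq (GRCm38.p6), matched by symbol. Some list members are counted but not reported here by name. R 4.3.3 and Python 3.11.15 were used.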

Additional observations from a re-analysis of the deposited data

Results flagged for a closer look

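The effect of IL6 and TGFb differed between times, by the limma test of the difference itself, for 36 results, given as log2 differences of effect. From 12 to 24 h the effect became more positive for Cyp1b1 by 5.02, Il17f by 4.65, Pdpn by 4.46, Il17a by 3.94, Il9 by 3.49, Il23r by 3.47, Il10 by 2.75, Il1r1 by 2.50, Il22 by 2.40, Il24 by 1.87 and Ccl20 by 1.71. Over the same interval the difference was -3.36 for Isg20, -3.28 for Serpinb9, -3.23 for Dapl1 and -3.10 for Plxnc1. With edgeR 9 of these 15 did not pass (Cyp1b1, Pdpn, Il22, Il24, Il9, Il10, Ccl20, Il23r and Il1r1), and Il17f and Ccl20 did not pass without course 2 or without course 3.

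From 24 to 48 h the effect became more positive for Ccl4 by 5.75, Ccl3 by 5.18, Ccl20 by 4.48, Sema6d by 4.38, Il17a by 2.93, Il24 by 2.12, Irf4 by 2.11, Il10 by 2.02, Bhlhe40 by 1.87, Il9 by 1.63, Il23r by 1.49, Ahr by 1.45 and Hif1a by 0.90. The difference was -4.91 for Pappa2, -4.13 for Pdzk1ip1, -3.94 for Wnt10b, -3.89 for Sspo, -2.29 for Ccr6, -1.38 for Rora, -1.10 for Batf and -0.73 for Il21r. Of these 21 results 13 did not pass without course 2, 12 without course 3 and 10 with edgeR. Ccl3, Ccl4, Pdzk1ip1, Il9, Il21r, Ccr6, Rora, Ahr, Batf, Irf4, Hif1a and Bhlhe40 did not pass without course 2 (adjusted p for Irf4 0.409, Ccr6 0.188 and Rora 0.0639) or without course 3 (0.278, 0.387 and 0.0619), and Il10 did not pass without course 2 (0.0886). With edgeR those that did not pass were Ccl20, Pdzk1ip1, Sspo, Il17a, Il24, Il9, Il10, Il23r, Il21r and Bhlhe40. The 24 h libraries enter both differences, so the 2 sets of values are not independent.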

How the results depend on the processing

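At 24 h, 147 of 184 called named genes stayed called under every alternative run and none reversed. Leaving out a course gave 1285 to 1960 higher and 1092 to 1856 lower genes, and leaving out 1 of the 6 libraries gave 1552 to 1798 and 1499 to 1643. Without TMM scaling 46.2% of calls were higher, in place of 51.7%. A fit of the 6 libraries alone called 2965 higher and 2586 lower genes, and a fit without the 72 h Th0 group 2332 and 2276. Same-numbered libraries of both conditions deviated together with correlations of 0.209, 0.042 and 0.347, so the numbers were not taken as pairs, although each library correlated best with its own number except for course 2. With the course number as a block the counts were 2064 and 1942 over all 57 libraries, and 3413 and 3014 over the 6. With that block Foxp3 passed (adjusted p = 0.0201 over the 57 and 1.01e-04 over the 6), as did Tbx21 over the 6 (adjusted p = 0.0475). For 24 against 12 h, edgeR gave 208 more positive genes, the 12 libraries of both times alone 956 and 925, and leaving out a course 95 to 335 more positive and 70 to 464 more negative. For 48 against 24 h, no TMM scaling gave 984 more positive and 1547 more negative, and moved the median from 0.005 to -0.092; the 12 libraries alone gave 571 and 586, and leaving out a course 222 to 2787 and 132 to 2242. The causes were not tested. Genes near 1 CPM rest on few reads, which limits the precision of their changes.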
